A study of Mus musculus with 24 samples.

Results

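The 8 genes described here encode enzymes that turn lanosterol, the first sterol of the pathway, into cholesterol: Cyp51, Tm7sf2, Msmo1, Nsdhl, Hsd17b7, Ebp, Sc5d and Dhcr7. They were chosen by name as the late enzymes of cholesterol synthesis, with earlier results of these data known. All 8 were found among the 54446 genes of the table. Cholesterol cannot cross from blood into brain in useful amounts, so brain cells make their own. Myelin, the lipid sheath that oligodendrocytes wrap around axons, holds most of the cholesterol of the brain. The pathway is switched on as a unit by SREBP2, a transcription factor released from the endoplasmic reticulum when membrane sterol is low and held back by Insig proteins when it is high.

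The libraries were labelled as mouse corpus callosum, a bundle of myelinated axons linking left and right cortex. They also held RNA of neurons, striatal neurons and choroid plexus, given below. Enzyme levels are thus those of the whole sample, not of white matter alone. Demyelination was induced with cuprizone, a copper chelator toxic to oligodendrocytes. Some mice received an inhibitor of Bruton's tyrosine kinase (BTKi), a kinase of B cells and myeloid cells. The 4 groups were naive mice given vehicle (n = 4), naive mice given BTKi (n = 4), cuprizone mice given vehicle (n = 8) and cuprizone mice given BTKi (n = 8). The sources used here give no strain, age, compound name, dose or time, and name no allele for any group. Nothing in the labels says that libraries of a group came from separate animals. The p-values set group differences against the spread between these libraries, which may be partly technical.

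Promoter sequences are shown for 3 of the enzymes. Msmo1 and Cyp51 were lower in cuprizone mice, as were other members, while the cuprizone and naive libraries of Tm7sf2 overlapped. Each window runs from 250 bases before to 50 bases after a RefSeq start site on GRCm38.p6 and is printed on the gene's own strand. Capitals mark matches, on either strand, to an SREBP site (TCACNCCAC or ATCACNNCA), to the NF-Y box CCAAT, to the Sp1 box GGGCGG or to the E-box CACGTG. The windows are chr8:64733529-64733828 for Msmo1, chr5:4104648-4104947 for Cyp51 and chr19:6067801-6068100 for Tm7sf2, all on the minus strand.
Msmo1: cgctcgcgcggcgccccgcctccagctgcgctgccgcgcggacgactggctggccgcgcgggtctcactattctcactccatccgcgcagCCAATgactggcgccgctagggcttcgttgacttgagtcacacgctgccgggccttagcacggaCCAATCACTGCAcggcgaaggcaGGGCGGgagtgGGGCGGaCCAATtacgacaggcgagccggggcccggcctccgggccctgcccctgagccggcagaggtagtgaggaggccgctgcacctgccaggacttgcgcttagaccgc
Cyp51: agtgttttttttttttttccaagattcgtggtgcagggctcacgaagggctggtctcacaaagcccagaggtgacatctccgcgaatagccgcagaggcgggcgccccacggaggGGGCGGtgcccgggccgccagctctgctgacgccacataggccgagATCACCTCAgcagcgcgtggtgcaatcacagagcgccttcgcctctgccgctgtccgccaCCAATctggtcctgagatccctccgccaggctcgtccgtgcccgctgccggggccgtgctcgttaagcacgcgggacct
Tm7sf2: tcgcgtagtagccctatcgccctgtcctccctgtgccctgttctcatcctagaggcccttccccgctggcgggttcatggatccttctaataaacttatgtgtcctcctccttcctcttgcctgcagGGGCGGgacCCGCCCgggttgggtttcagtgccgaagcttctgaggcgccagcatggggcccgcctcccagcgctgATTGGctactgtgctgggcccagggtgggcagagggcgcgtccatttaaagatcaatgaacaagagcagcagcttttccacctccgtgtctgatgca

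The SREBP form ATCACNNCA was found in 2 of the 8 genes. Cyp51 holds it as ATCACCTCA, 89 bases before the start, and Msmo1 as ATCACTGCA, 93 bases before the start, where its first letters overlap a CCAAT box. Of all 32851 promoter windows in the table, 2.77% hold that form. The other form, TCACNCCAC, was in none of the members' windows and in 1.24% of all windows. Dhcr7, Sc5d, Nsdhl and Ebp, also called lower in cuprizone vehicle mice, held neither form, nor did Hsd17b7 and Tm7sf2. A link between these forms and the changes was not tested. CCAAT boxes stood in at least 1 window of all 8 genes, against 37.4% of all windows, and GGGCGG in all 8, against 35.7%. Dhcr7 has 3 windows and so more chances of a match. The E-box was found in Hsd17b7, Sc5d and Dhcr7, against 7.15% of all windows. A match describes letters and is not evidence of binding.

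Values are FPKM, fragments of a gene scaled by its length and by the fragments of the library, so levels can be set side by side per length. A library's values also depend on what its other genes take up, and total FPKM ran from 462521 to 496350. In naive vehicle mice the order of levels ran from Msmo1 (44.7 ± 1.03 FPKM, SD, n = 4) through Tm7sf2 (28.1 ± 1.03), Sc5d (23.5 ± 1.31), Cyp51 (15.9 ± 0.295), Dhcr7 (13.1 ± 1.23), Nsdhl (11.9 ± 0.314) and Ebp (8.42 ± 0.438) to Hsd17b7 (5.14 ± 0.533). Only Dhcr7 and Nsdhl, neighbours in that order, had overlapping libraries. Naive BTKi mice gave the same order. In cuprizone vehicle mice Msmo1 (30.0 ± 2.14 FPKM, n = 8) came down to the range of Tm7sf2 (27.5 ± 1.62). Nsdhl (9.77 ± 0.568) and Dhcr7 (9.60 ± 0.579) again overlapped, as did Dhcr7 and Ebp (7.04 ± 1.01). Together the 8 enzymes summed to 151 ± 1.67 FPKM in naive vehicle, 148 ± 3.57 in naive BTKi, 121 ± 2.79 in cuprizone vehicle and 116 ± 4.14 in cuprizone BTKi mice.

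**Figure D1:**
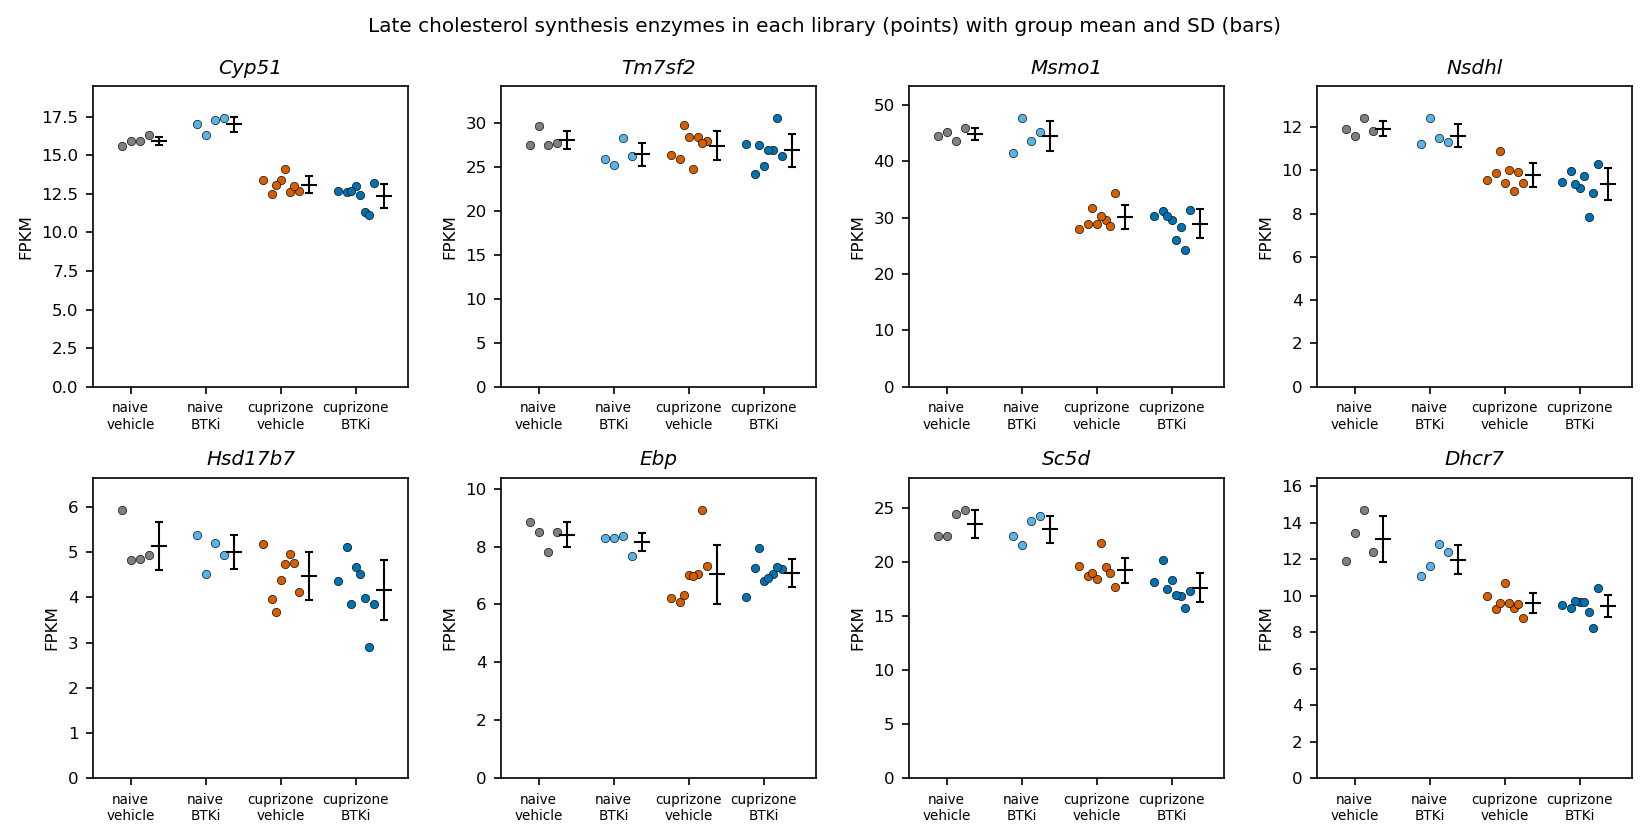
FPKM of the 8 enzymes (vertical axes, from 0) in the 4 groups, with 1 point per library and a bar for the group mean and SD. The cuprizone libraries of Msmo1, Cyp51, Nsdhl, Sc5d and Dhcr7 lie below the naive libraries under the same treatment, and those of Tm7sf2 overlap them.

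The libraries had implied depths of 29.8 M to 31.0 M fragments, with 1 lower, cuprizone BTKi 5, at 26.5 M, read from the spacing of low FPKM values. Markers of the labelled tissue were present in every library: 12 genes of mature oligodendrocytes summed to 1726 to 2463 FPKM in naive vehicle, 1429 to 1486 in naive BTKi, 509 to 881 in cuprizone vehicle and 550 to 1201 in cuprizone BTKi mice, with none at 0. Neuronal RNA was also plentiful: 6 neuron genes summed to 1874 to 2230 FPKM in naive vehicle, 2005 to 2197 in naive BTKi, 2014 to 2264 in cuprizone vehicle and 1891 to 2118 in cuprizone BTKi mice. That sum was about as high as the oligodendrocyte sum in naive vehicle mice and above it in every other group. Naive vehicle 2 stood apart with the highest striatal neuron level (6 genes, summed 414 FPKM against 159 at the lowest of its group). Cuprizone vehicle 1, 4 and 7 were poor in choroid plexus RNA (6 genes, summed 31.4 FPKM at the lowest against 1528 at the highest of the group).

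Cuprizone vehicle mice were set against naive vehicle mice to measure the enzymes in demyelinated tissue. Of the 8 enzymes, 6 fell and none rose: Msmo1, Dhcr7, Sc5d, Nsdhl, Cyp51 and Ebp. Of 15216 genes tested with limma, 4.82% were called lower, 10.2% higher and 15.0% in either direction (Benjamini-Hochberg adjusted p under 0.05). The split of 1555 higher and 733 lower genes depended on scaling: median ratio scaling gave 1229 and 978, quantile normalization 1205 and 1072. The median log2 change of the 8 was -0.27, against 0.03 over all genes. Of the members, 5 had cuprizone libraries wholly below the naive ones, against 2.85% of all genes. These losses were modest, between 16.4% and 32.9% of the naive mean for the called genes. Changes below are log2 differences of FPKM + 0.5 with their SE, and p-values are limma's, adjusted over all genes tested.

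Cyp51, the cytochrome P450 that acts first by removing a methyl group from lanosterol, was at 15.9, 15.9, 15.6 and 16.3 FPKM in the naive vehicle libraries. In cuprizone vehicle mice it ran from 12.5 through a median of 13.1 to 14.1 FPKM. All 8 cuprizone libraries were lower than all 4 naive ones, a log2 change of -0.27 (SE 0.04, adjusted p = 6.29e-05). Cyp51 (ENSMUSG00000001467.5) is at chr5:4081145-4104746, minus strand, in GENCODE M21 (GRCm38), as are all coordinates of genes here, and shares 166 bases with Akap9 on the other strand.

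Tm7sf2 encodes a reductase of the double bond that Cyp51 leaves. It was at 29.7, 27.5, 27.6 and 27.8 FPKM in naive vehicle libraries and ran from 24.8 through 27.9 to 29.8 FPKM in cuprizone vehicle mice. The cuprizone range took in the naive one and reached below it, with a log2 difference of -0.03 (95% interval -0.14 to 0.07, adjusted p = 0.710). Lbr, the lamin B receptor of the inner nuclear membrane, carries out the same reduction. It was at 3.18 FPKM in naive and 3.07 FPKM in cuprizone vehicle mice (log2 difference -0.05, adjusted p = 0.717). The ratio of Tm7sf2 to Lbr within a library differed by 0.01 on the log2 scale (2.97 ± 0.13 against 2.96 ± 0.13, SD, n = 8 and 4; exact two-sided permutation p = 0.889, adjusted p = 0.889 over 12 ratio tests). Tm7sf2 (ENSMUSG00000024799.15) lies on the minus strand of chromosome 19. Its ID version is not that of M21, where the gene spans 6062821 to 6068373 and shares 532 bases with Vps51 on the same strand, so fragments there cannot be told apart by strand. Vps51 itself was at 5.78 FPKM in naive and 5.72 FPKM in cuprizone vehicle mice (log2 difference -0.01, adjusted p = 0.976).

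The next enzymes strip the remaining pair of methyl groups from the ring. Msmo1, the methylsterol oxidase that starts this removal, was at 45.2, 43.5, 44.4 and 45.9 FPKM in naive vehicle libraries and ran from 27.9 through 29.3 to 34.4 FPKM in cuprizone vehicle mice. No library of one group reached the other, and Msmo1 had the largest loss of the 8 members (log2 change -0.57, SE 0.06, adjusted p = 3.09e-07). Msmo1 (ENSMUSG00000031604.10) is at chr8:64718139-64733792, minus strand. Nsdhl, the dehydrogenase that releases the oxidised carbon, was at 11.6, 12.4, 11.9 and 11.8 FPKM in naive vehicle libraries against 9.06, 9.70 and 10.9 (lowest, median and highest) in cuprizone vehicle mice. Again the groups did not overlap (log2 change -0.28, SE 0.05, adjusted p = 7.83e-04). Nsdhl (ENSMUSG00000031349.4) is at chrX:72918557-72958514, plus strand.

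Hsd17b7, the reductase that restores the sterol's hydroxyl group after each removal, had the lowest level of the members and the widest error. Its naive vehicle libraries were at 4.83, 4.86, 5.94 and 4.94 FPKM, and the cuprizone vehicle libraries ran from 3.67 through 4.56 to 5.18 FPKM. The groups overlapped, with a log2 difference of -0.19 (95% interval -0.39 to 0.02, adjusted p = 0.238). That interval holds the changes of Cyp51, Nsdhl, Ebp and Sc5d, and also the -0.03 of Tm7sf2. Hsd17b7 (ENSMUSG00000026675.12) is at chr1:169949535-169969241, minus strand.

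Ebp, Sc5d and Dhcr7 rearrange the double bonds of the sterol rings: Ebp shifts a bond, Sc5d adds the bond that stays in cholesterol and Dhcr7 removes the bond that Ebp shifted. Ebp, the isomerase, was at 8.50, 7.81, 8.86 and 8.49 FPKM in naive vehicle libraries and ran from 6.10 through 7.01 to 9.27 FPKM in cuprizone vehicle mice. Only cuprizone vehicle 8, at 9.27 FPKM, lay among or above the naive libraries, and the log2 change was -0.25 (SE 0.07, adjusted p = 0.0221). That call was the least firm of the 6: it ended without naive vehicle 1 (adjusted p = 0.0514), 3 (0.0741) or 4 (0.0579), with only the compared groups in the fit (0.0861), and without the 3 libraries poor in choroid plexus RNA (0.0626). Ebp (ENSMUSG00000031168.14) is at chrX:8185329-8193512, minus strand.

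Sc5d, the desaturase that follows Ebp, was at 22.4, 24.4, 22.4 and 24.8 FPKM in naive vehicle libraries and ran from 17.7 through 19.0 to 21.7 FPKM in cuprizone vehicle mice, without overlap (log2 change -0.28, SE 0.05, adjusted p = 5.98e-04). Dhcr7, the reductase that makes cholesterol itself and is mutated in Smith-Lemli-Opitz syndrome, was at 13.4, 14.7, 11.9 and 12.4 FPKM against a range of 8.80 through 9.55 to 10.7. It had the second-largest loss (log2 change -0.43, SE 0.06, adjusted p = 9.61e-06), also without overlap. Sc5d (ENSMUSG00000032018.14) is at chr9:42251595-42264256, minus strand, and Dhcr7 (ENSMUSG00000058454.15) at chr7:143823145-143848410, plus strand.

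**Figure D2:**
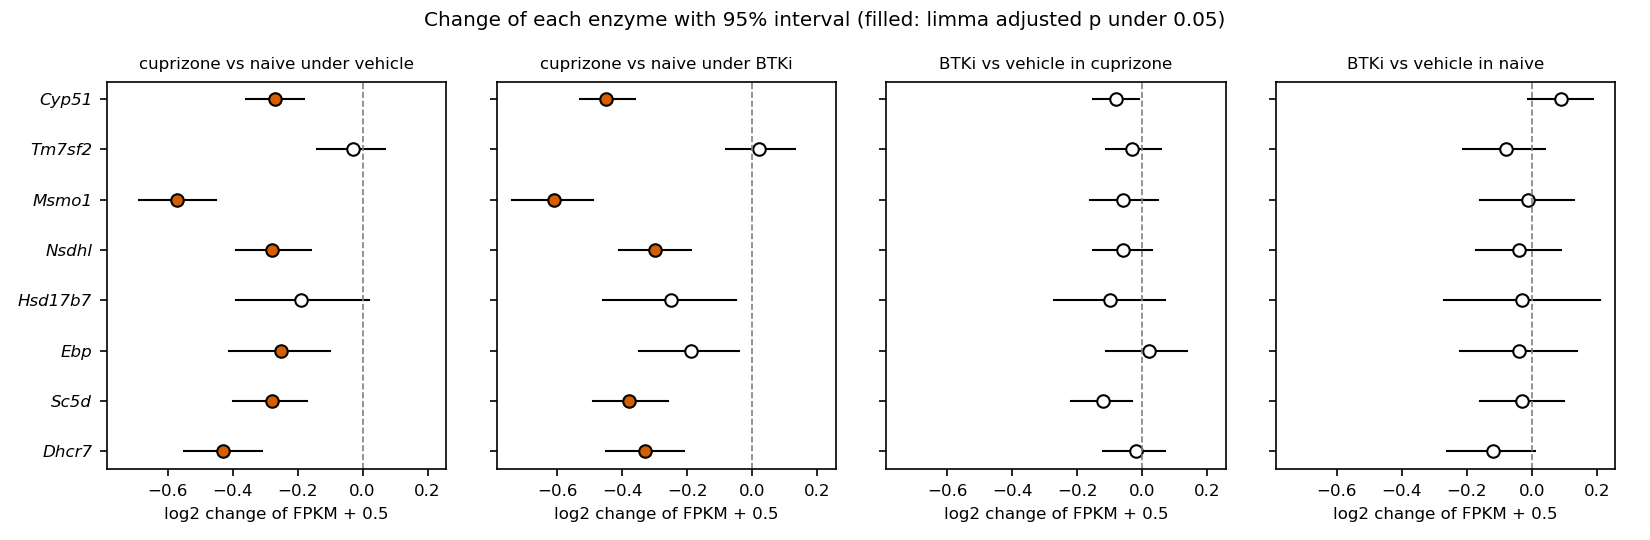
Log2 change of FPKM + 0.5 for each enzyme (horizontal axes) with its 95% interval, in 4 comparisons. Filled points passed an adjusted p of 0.05. The intervals of Msmo1, Dhcr7, Cyp51, Sc5d and Nsdhl lie below 0 in both cuprizone comparisons, and no point is filled in the BTKi comparisons.

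The same contrast under BTKi compared the other 12 libraries and shares none with the one under vehicle. The spread in the fit, however, came from all 24 libraries for both contrasts. Of the 8 enzymes, 5 fell and none rose, all 5 without overlap between groups: Cyp51, Msmo1, Sc5d, Dhcr7 and Nsdhl. Of all genes tested, 1.77% were called lower, 6.11% higher, 7.87% in either direction (929 higher and 269 lower, or 772 and 406 after median ratio scaling and 724 and 395 after quantile normalization), and 1.47% were lower without overlap. The median log2 change of the 8 was -0.31, against 0.02 over all genes. Cyp51 went from 16.3, 17.3, 17.0 and 17.4 FPKM in naive BTKi libraries to between 11.1 and 13.2 FPKM (median 12.7) in cuprizone BTKi mice, a log2 change of -0.45 (SE 0.04, adjusted p = 2.52e-07). Msmo1 went from 47.6, 43.6, 41.4 and 45.2 FPKM to between 24.2 and 31.4 FPKM (median 29.8), a log2 change of -0.61 (SE 0.06, adjusted p = 3.37e-07). For both genes every cuprizone library lay below every naive one.

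Sc5d changed by -0.38 (SE 0.05, adjusted p = 4.43e-05), with naive BTKi libraries at 21.5, 23.8, 22.4 and 24.2 FPKM and cuprizone BTKi libraries at 15.7 to 20.2 FPKM. For Dhcr7 the change was -0.33 (SE 0.06, adjusted p = 4.11e-04), from 11.6, 12.8, 11.1 and 12.4 FPKM to between 8.23 and 10.4 FPKM. Nsdhl changed by -0.30 (SE 0.05, adjusted p = 5.40e-04), from 12.4, 11.5, 11.2 and 11.3 FPKM to between 7.85 and 10.3 FPKM. The other 3 members were not called here. Hsd17b7 differed by -0.25 (95% interval -0.46 to -0.05, adjusted p = 0.145), Ebp by -0.19 (-0.35 to -0.04, adjusted p = 0.138) and Tm7sf2 by 0.02 (-0.08 to 0.13, adjusted p = 0.867). Ebp passed without cuprizone vehicle 8, a library outside this comparison that widens the shared spread (adjusted p = 0.0321), and with only the compared groups in the fit (0.0444).

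Tm7sf2 was also set against the other members by the log2 ratio of each to Tm7sf2 within a library. Tm7sf2 was chosen as the denominator after its values were seen, so the ratios are a description with no test. Under vehicle the mean ratio was lower in cuprizone than in naive mice for all 7 genes, with differences of -0.54 for Msmo1, -0.39 for Dhcr7, -0.25 for Sc5d, -0.24 for Cyp51 and Nsdhl, -0.22 for Ebp and -0.15 for Hsd17b7. Libraries of the 2 groups did not overlap for Msmo1 and Dhcr7 and overlapped for the other 5. Under BTKi the differences ran from -0.64 for Msmo1 to -0.21 for Ebp, without overlap for Msmo1, Cyp51, Sc5d and Dhcr7.

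**Figure D3:**
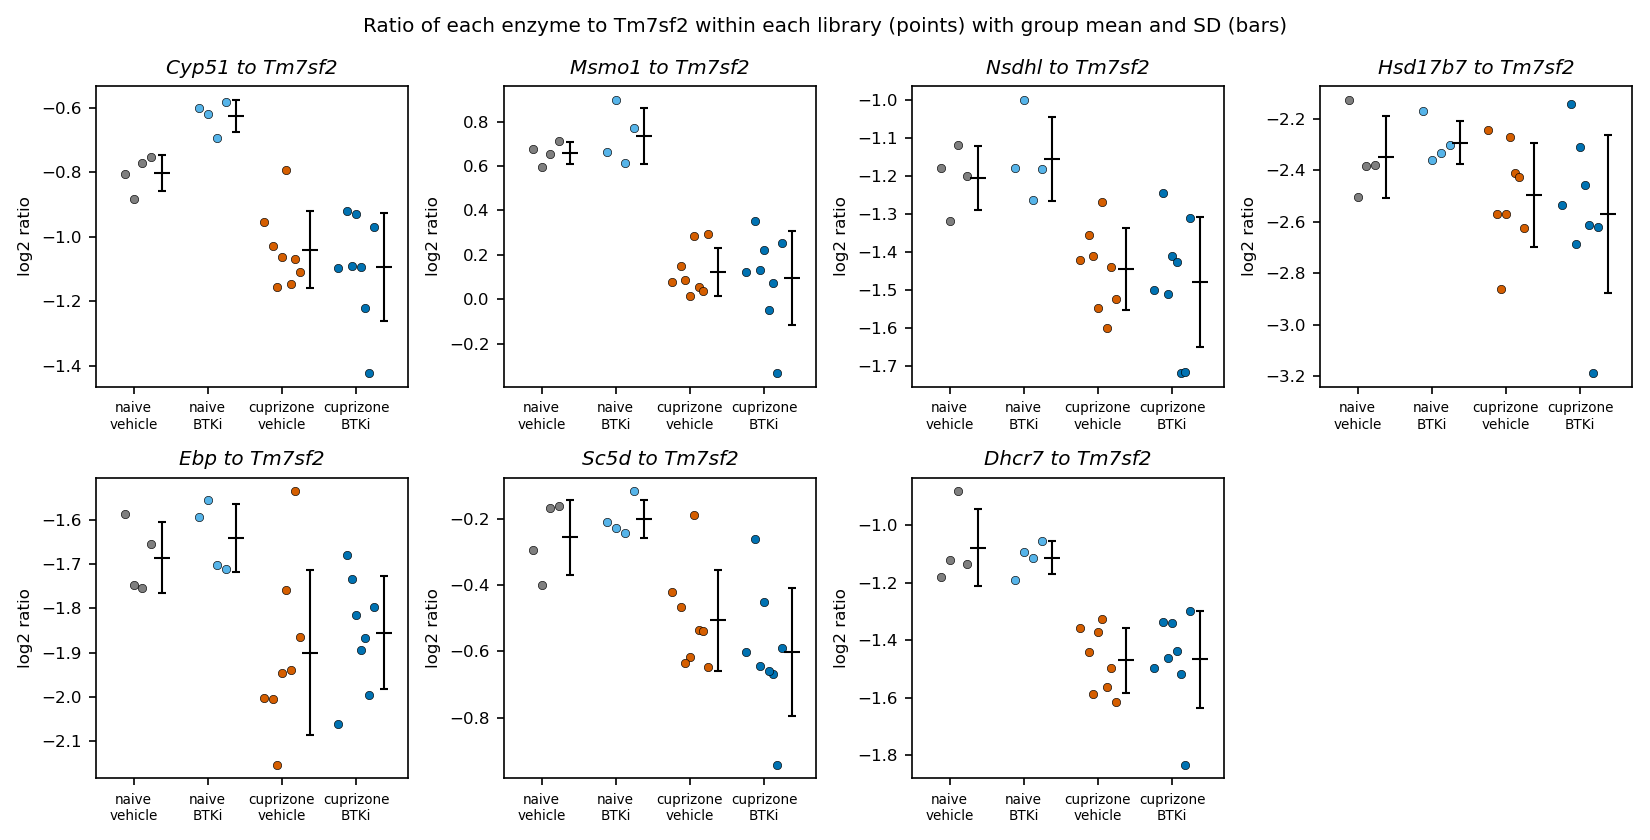
Log2 ratio of each of the other 7 enzymes to Tm7sf2 within a library (vertical axes, not starting at 0), with 1 point per library and the group mean and SD. For Msmo1 and Dhcr7 all cuprizone points lie below all naive points under the same treatment, and the cuprizone BTKi point lowest for Msmo1 is at -0.33.

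BTKi was compared with vehicle in cuprizone mice and in naive mice to see whether the inhibitor moved these enzymes. In cuprizone mice limma called 0 of 8, with 2 at an unadjusted p under 0.05 (Cyp51 and Sc5d, both lower). Of all genes tested, 0.177% were called there and 8.79% had an unadjusted p under 0.05. Sc5d ran from 17.7 to 21.7 FPKM under vehicle and from 15.7 to 20.2 FPKM under BTKi, so the groups overlapped (log2 difference -0.12, 95% interval -0.22 to -0.03, adjusted p = 0.383 by limma). Cyp51 differed by -0.08 (interval -0.15 to -0.01, adjusted p = 0.493) and Msmo1 by -0.06 (-0.16 to 0.05, adjusted p = 0.803). Over the 8 members the intervals reached from -0.27 to 0.14.

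In naive mice limma again called 0 of 8, and 0 had an unadjusted p under 0.05, against 0.217% called and 12.6% at that unadjusted p among all genes. Cyp51 was 0.09 higher under BTKi (interval -0.01 to 0.19, adjusted p = 0.444) and Dhcr7 differed by -0.12 (-0.26 to 0.01, adjusted p = 0.448). The naive groups also differed in marker levels. All 12 mature oligodendrocyte genes were lower under BTKi (median -0.32), as were all 6 striatal neuron genes (median -0.54). Limma called 0 of the 12 and 0 of the 6, with 2 and 1 at an unadjusted p under 0.05. The difference between the BTKi effects in cuprizone and naive mice was also tested. It was called for 0 of 8 members by limma and for 0.125% of all genes, with 1 member at an unadjusted p under 0.05 against 9.74% of all genes. That member was Cyp51, with a difference of -0.17 (interval -0.30 to -0.05, adjusted p = 0.359). Intervals that span 0 do not show that the inhibitor leaves these genes alone.

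Enzymes upstream of lanosterol were also lower in cuprizone mice. Of 11 enzymes from acetyl-CoA to lanosterol, 7 fell and none rose under vehicle (median -0.26), and 9 fell and none rose under BTKi (median -0.38). Sqle, the epoxidase that commits squalene to sterols, fell from 19.8 to 14.8 FPKM under vehicle (log2 change -0.41, adjusted p = 7.71e-07) and from 20.5 to 13.8 FPKM under BTKi (-0.56, adjusted p = 1.83e-08).

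Among 10 genes of sterol sensing and uptake, of which 9 passed the filter on low values, 4 fell and 1 rose under vehicle, with a median of -0.07. Under BTKi the counts were the same and the median was -0.13. Insig1, which holds the SREBP complex in the endoplasmic reticulum and is itself an SREBP target, fell from 27.4 to 20.2 FPKM under vehicle (log2 change -0.43, adjusted p = 2.71e-05). Srebf2, which encodes SREBP2, fell by less, from 54.6 to 49.4 FPKM (-0.14, adjusted p = 0.00101). Srebf1, which encodes the related factor of fatty acid synthesis, rose from 17.8 to 23.2 FPKM (0.38, adjusted p = 0.0162).

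Of 6 genes listed as redox partners of sterol enzymes, 2 rose and none fell, in both cuprizone comparisons. Cyb5r1, a reductase of the cytochrome b5 family, rose from 8.26 to 10.8 FPKM under vehicle (log2 change 0.37, adjusted p = 9.78e-04). Among 15 genes of cholesterol removal, oxidation and esters, 6 rose and 2 fell under vehicle, and 5 rose and 1 fell under BTKi. Abca1, which exports cholesterol, rose from 3.97 to 8.06 FPKM under vehicle (0.91, adjusted p = 1.63e-06). Npc1, which moves cholesterol out of lysosomes, fell from 18.7 to 14.4 FPKM there (-0.36, adjusted p = 2.76e-05).

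**Figure D4:**
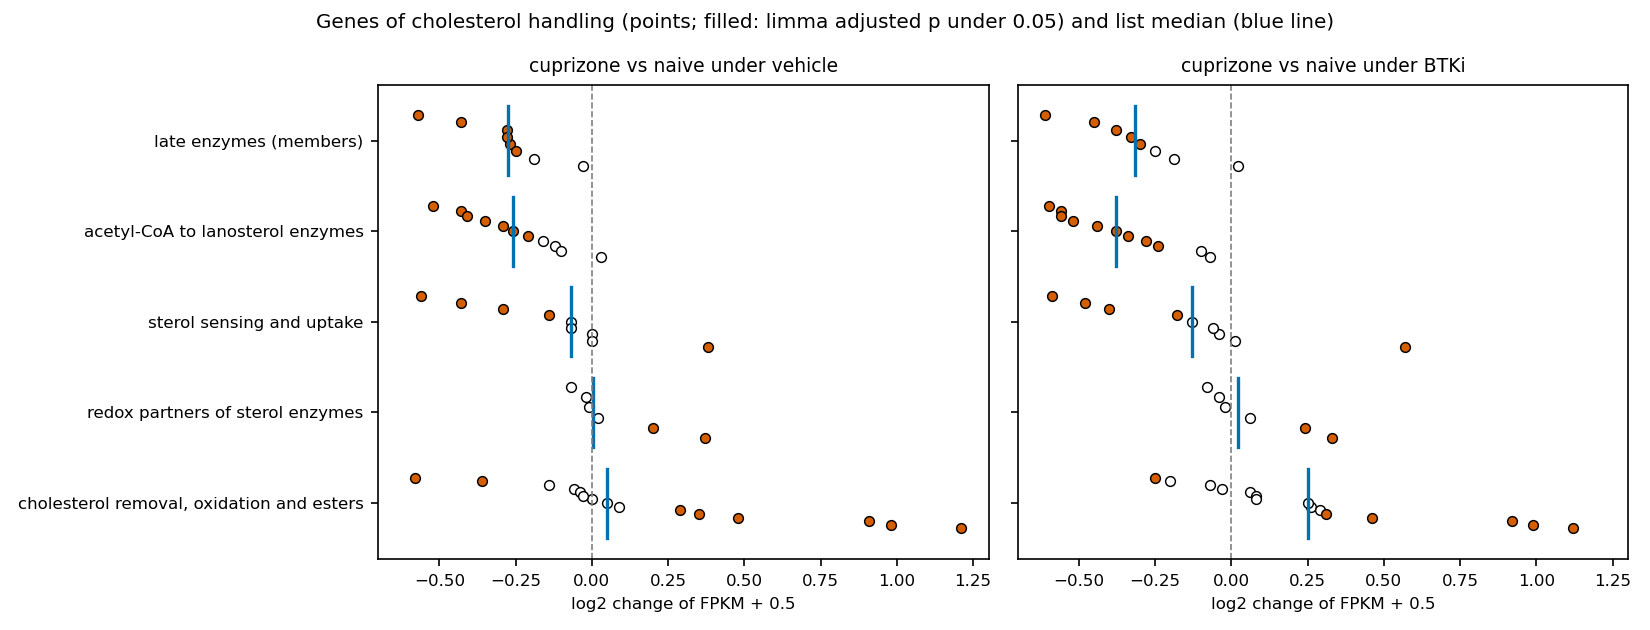
Log2 change of FPKM + 0.5 (horizontal axes) of the genes in 5 lists of cholesterol handling, for cuprizone against naive mice under vehicle and under BTKi. Each point is a gene, filled where it passed an adjusted p of 0.05, and the blue line is the list's median, at -0.27 and -0.31 for the 8 late enzymes.

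Markers of cell types moved with cuprizone beside the enzymes. All 12 mature oligodendrocyte genes fell in both cuprizone comparisons, with medians of -1.54 under vehicle and -1.06 under BTKi. Of 6 microglial genes 5 rose under vehicle, and their sum went from 65.1 to 85.5 FPKM in naive vehicle to 108 to 299 FPKM in cuprizone vehicle mice. Among 6 astrocyte genes 3 rose and 1 fell under vehicle, and among 6 oligodendrocyte precursor genes 1 fell. That precursor gene was at 22.9 FPKM in naive vehicle 2 and at 12.6 to 14.4 FPKM in the other naive vehicle libraries. Under BTKi 0 of the 6 precursor genes fell and 1 rose. All 6 striatal neuron genes fell under vehicle (median -0.97). Without naive vehicle 2, the library highest in these genes, 3 of the 6 fell (median -0.69), while all 12 oligodendrocyte genes still did. Under BTKi limma called 0 of the 6, and 0 had an unadjusted p under 0.05 (median -0.35). By limma 0 of 6 neuronal, 0 of 6 choroid plexus and 0 of 6 endothelial genes were called under vehicle (0, 6 and 0 at an unadjusted p under 0.05), with a choroid plexus median of -1.36. No listed marker was at 0 in any library. In bulk tissue, fewer cells of a type and less RNA per cell cannot be told apart, and the part of these markers in the enzymes' change was not tested.

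Genes of like pattern were ranked by the root mean square difference of gene-centred log2 values over the 24 libraries. The 4 nearest to the mean of the 8 members were Ptprd (0.070), Sez6l2 (0.071), Tmem151a (0.077) and Stard4 (0.078). Stard4 carries sterol between membranes. For single members, Cyp51 and Sc5d were each other's nearest gene of all tested (0.074), the nearest to Nsdhl was Cyp51 (0.090) and the nearest to Msmo1 was Sqle (0.111). The genes nearest to Tm7sf2, Dhcr7, Hsd17b7 and Ebp were Ggt7 (0.053), Pip4k2a (0.081), Fpgt (0.103) and Prrt3 (0.113), none of them a cholesterol enzyme. Small differences favour genes with small changes, so these are descriptions of pattern only.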

How the data were processed

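RNA was sequenced as polyadenylated, stranded TruSeq libraries from 24 samples, per the labels' protocols. The authors deposited FPKM values. Aligner, counter, build and annotation, which bear on FPKM, were not given in the sources used here, and FPKM is no count, so no count test was run. Of 54446 gene IDs, GENCODE M21 held 53229 in the same version, and 54409 had a symbol. No column was left out. Depth was read from the spacing of low values in 3991 genes.

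The 15216 genes whose FPKM averaged 0.5 or more, all 8 members among them, entered limma 3.58.1 (R 4.3.3) as log2(FPKM + 0.5), with a trend, the 4 groups in 1 model and Benjamini-Hochberg adjustment at 0.05. The fit and the depth method were tested on simulated data. The within-library ratio of Tm7sf2 to Lbr was compared by exact two-sided permutation. Named genes were the members, Lbr, Srebf2, Insig1, the top called gene of each pathway list in each direction under vehicle, and genes of like pattern. Akap9 and Vps51 were named for an overlap. Some genes that this rule names, and ratios to them, are not reported here. Members, lists and tests were chosen with earlier results of these data known. Alternatives were other pseudocounts, filters and scalings, no trend, fewer groups, a replicate block and leaving out libraries. Promoters came from RefSeq (GRCm38.p6), and all 8 members matched by symbol. Python 3.11.15, pandas 2.3.3, numpy 2.4.6 and matplotlib 3.10.9 were used.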

Additional observations from a re-analysis of the deposited data

Results flagged for a closer look

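In 5 of 32 sets of libraries (8 members in 4 groups), the highest or lowest library stood apart from the rest by Dixon's test at 95%, where chance gives about 1 in 20. Ebp was at 9.27 FPKM in cuprizone vehicle 8, against 6.10 to 7.33 FPKM in the other libraries of the group, and at 7.69 FPKM in naive BTKi 4, against 8.28 to 8.36 FPKM. Tm7sf2 was at 29.7 FPKM in naive vehicle 1, against 27.5 to 27.8 FPKM. Hsd17b7 was at 5.94 FPKM in naive vehicle 3, against 4.83 to 4.94 FPKM. Sc5d was at 21.7 FPKM in cuprizone vehicle 6, against 17.7 to 19.6 FPKM.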

How the results depend on the processing

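The 5 calls that cuprizone vehicle and cuprizone BTKi mice shared (Cyp51, Msmo1, Nsdhl, Sc5d and Dhcr7) held in 24 of 24 fits that left out 1 library each, and the count of members called lower stayed at 5 or 6 in both comparisons under the alternatives run. With the replicate number as a block, 6 members were lower under vehicle and 5 under BTKi. Correlations of libraries with the same number ran from -0.27 to 0.32 between the cuprizone groups, where 3 of 16 libraries correlated best with their own number. Between naive and cuprizone groups they ran from -0.16 to 0.29. Such values cannot settle whether the numbers mark a shared batch. The block lowered the genes called for the difference of BTKi effects from 19 to 9 and changed no member's call.

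Counts over all genes moved in the BTKi comparisons. In cuprizone mice the 27 genes became 16 without a filter, 11 without the 3 libraries poor in choroid plexus RNA (chosen after seeing the data) and 14 to 34 without 1 library. In naive mice the 33 became 21, 19 and 7 to 41, and 3 with only the groups compared. The 19 of the difference became 7 without the 3 libraries and 8 to 23 without 1. The cause was not tested.

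Changes of sign occurred in comparisons where the member concerned had not passed the test. Tm7sf2 under BTKi in the cuprizone comparison was -0.0047 with median ratio scaling, -0.0022 with the block and -0.003 to 0.05 without 1 library. In naive mice, the BTKi difference of Msmo1 was 0.01 with median ratio scaling and -0.05 to 0.02 without 1 library, and that of Hsd17b7 was 0.01 with quantile normalization and -0.06 to 0.03. In cuprizone mice it was -0.01 to 0.07 for Ebp and -0.04 to 0.002 for Dhcr7 without 1 library, and 0.01 for Tm7sf2 without the 3 libraries. The difference of effects was 5.9e-04 for Msmo1 without the 3 libraries and -0.04 to 0.01 for Nsdhl without 1.

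Without 1 library, the ratio of Tm7sf2 to Lbr differed by -0.03 to 0.07 under vehicle. FPKM gives no counts, so depth limits low genes such as Hsd17b7 to an unknown degree.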

Other observations

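Cuprizone BTKi 8 had the lowest value of its group for 5 of the 8 members (Cyp51 11.1, Msmo1 24.2, Hsd17b7 2.91, Sc5d 15.7 and Dhcr7 8.23 FPKM) and the highest for Tm7sf2 (30.6 FPKM). Its mean centred log2 level of 6 microglial genes was also the highest of the group, 0.78, against -0.05 to 0.43 in the other libraries. Cuprizone vehicle 8, the library with the highest Ebp, had the highest microglial level of all 24 libraries, 1.05. The mean centred log2 level of the 8 members in cuprizone vehicle 8, -0.02, was the highest of that group. In cuprizone BTKi 8 the members' level, -0.25, was the lowest of that group. Whether the microglial level has a part in these levels was not tested.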
